A study of Mus musculus with 2 samples.

Results

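Among the cells of a mouse epiblast stem cell study, 75 barcodes carried macrophage marker RNA. They were chosen from 17197 filtered cells, of 21593 that the deposited cell tag table lists, as cells in which the UMIs of the macrophage genes Lyz2, C1qa, C1qc and Ccl6 summed to at least 5 and in which there were under 10 UMIs of the pluripotency genes Pou5f1, Zfp42 and Dppa5a. A UMI is a molecular barcode that stands for 1 captured RNA molecule, and the filter kept cells with at least 500 genes and at most 10% of UMIs from mitochondrial genes. The 75 cells, called members here, were 0.436% of the filtered cells (exact binomial 95% interval 0.343 to 0.546%, counting error only).

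The labels name a pair of samples from 1 mouse cell line, Delmix: epiblast stem cells with no treatment, and embryoid bodies at day 2 that were grown from those stem cells. Epiblast stem cells are pluripotent cells of the primed, post-implantation type, and embryoid bodies are floating aggregates in which such cells begin to differentiate. Both were dissociated with trypsin, with a target of 10000 cells each, and single-cell 3′ libraries were made on the 10x Genomics platform. The labels speak of a channel for each sample, whereas the files hold 1 pooled matrix with a single barcode suffix and cell tag oligos, and no tag name matches a sample. The pooled matrix was therefore treated as 1 sample: epiblast stem cells were not compared with embryoid bodies, the culture each member came from could not be told, and no p-value is given. Both samples are a single cell line, and the labels mention no feeder layer, no blood cells and no macrophages. Only 1 barcode suffix was present, so sharing of cell barcodes between libraries could not be checked.

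Macrophages are phagocytes of the blood lineage that arise in the yolk sac, the fetal liver and the bone marrow, and settle in nearly every tissue. They engulf dying cells and microbes through surface receptors, break the cargo down in lysosomes, store the iron and lipid they recover, and release chemokines that attract other leukocytes. Their identity rests on the Ets factor PU.1 (gene Spi1), and their survival on the receptor of colony stimulating factor 1 (Csf1r). Lyz2 encodes lysozyme, C1qa, C1qb and C1qc encode the chains of the complement starter C1q, Ccl6 is a chemokine, and Wfdc17 is a small secreted protein of activated macrophages.

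The promoters of 4 of these genes, of which all but C1qb helped to choose the cells, are shown because PU.1 binds purine-rich Ets sites. All 4 promoters shown hold the letters of the Ets core. The promoter of Wfdc17, which is also in the RefSeq table, lacked these letters and is not shown. C1qa had no promoter entry in that table. Each line gives the 250 bases before the RefSeq start site, 5′ to 3′ on the minus strand of build GRCm38.p6, with ACTTCCT, the other strand of the Ets core AGGAAGT, in capitals. Lyz2 lies at chr10:117282273-117282522, C1qc at chr4:136892915-136893164, C1qb at chr4:136886201-136886450 and Ccl6 at chr11:83593088-83593337.
Lyz2: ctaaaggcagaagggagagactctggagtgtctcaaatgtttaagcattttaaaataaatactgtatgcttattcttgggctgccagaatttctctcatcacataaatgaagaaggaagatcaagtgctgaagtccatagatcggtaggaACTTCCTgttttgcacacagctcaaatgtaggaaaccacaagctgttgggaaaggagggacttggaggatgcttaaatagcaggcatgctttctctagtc
C1qc: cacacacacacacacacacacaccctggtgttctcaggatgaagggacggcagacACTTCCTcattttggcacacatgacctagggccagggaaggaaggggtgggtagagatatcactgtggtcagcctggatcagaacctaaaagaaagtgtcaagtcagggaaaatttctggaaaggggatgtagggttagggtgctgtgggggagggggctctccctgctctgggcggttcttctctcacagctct
C1qb: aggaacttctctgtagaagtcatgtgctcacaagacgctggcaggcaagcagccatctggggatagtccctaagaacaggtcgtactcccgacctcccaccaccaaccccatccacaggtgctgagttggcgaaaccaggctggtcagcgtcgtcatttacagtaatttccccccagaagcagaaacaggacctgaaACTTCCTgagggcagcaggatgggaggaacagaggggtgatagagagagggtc
Ccl6: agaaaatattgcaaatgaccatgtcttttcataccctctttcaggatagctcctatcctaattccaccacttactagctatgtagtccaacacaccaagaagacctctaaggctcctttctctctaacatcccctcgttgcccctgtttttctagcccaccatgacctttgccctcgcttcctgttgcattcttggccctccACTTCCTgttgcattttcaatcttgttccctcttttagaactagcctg
The 7 letters AGGAAGT were searched on both strands in 300-base windows that also hold 50 bases after the start. They were in 3 of the 3 marker genes of the rule with a window in the RefSeq table (Lyz2, C1qc and Ccl6), and in 5 of the 14 genes with a window among the 20 genes of largest fold described below (Bcl2a1b, Pf4, Ctss, Ccl12 and C1qb). They were in 4 of 21 windows of lysosomal protein genes. Of all 27025 gene symbols in that table, 10.7% had the letters. The E-box CACGTG, which reads the same on both strands, was in 0 of the 3 windows of rule genes, 0 of the 14 of leading genes and 7 of the 21 of lysosomal protein genes (Ctsa, Ctsd, Ctsl, Lgmn, Lamp1, Gla and Glb1), against 8.09% of all symbols. A match of letters is a description and not a bound site.

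No cell with under 10 pluripotency UMIs lay just below the marker limit of the rule. Of the filtered cells with under 10 UMIs of the pluripotency genes, 5554 had 0 UMIs of the 4 marker genes, 66 had 1, 3 had 2, and none had 3 or 4. The members carried from 5 to 386 of these UMIs, with a median of 72. Just inside the threshold lay 2 cells with 5 marker UMIs and 2 with 9. The first 2 had 8033 and 8361 UMIs in all and 6 of the pluripotency UMIs each, but only 0 and 4 UMIs of 16 other macrophage markers, with 33 and 61 UMIs of 20 G2/M phase genes. Those 2 barcodes go against the name macrophage, and counts with and without them are given below. The 2 cells with 9 marker UMIs had 17 and 18 UMIs of the other macrophage markers.

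**Figure D1:**
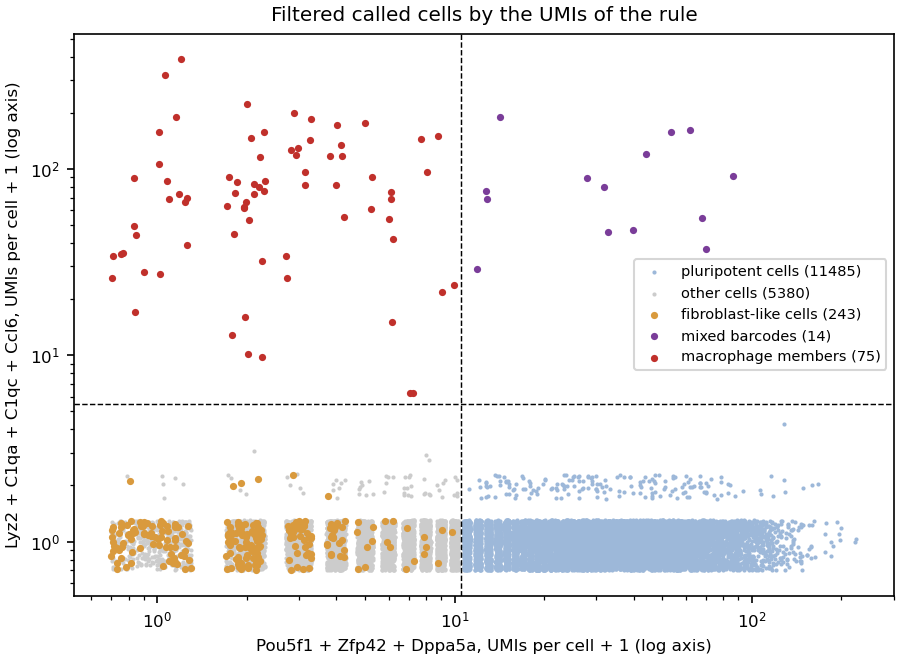
UMIs per cell of the 4 macrophage genes against those of the 3 pluripotency genes in 17197 filtered cells, on log axes after adding 1 and a small random shift; dashed lines mark the limits of the rule. The 75 members have at least 5 marker UMIs and the 14 mixed barcodes at least 28. No cell with under 10 pluripotency UMIs has 3 or 4 of them, and pluripotent cells have at most 3.

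A further 14 barcodes passed the marker minimum but held 11 to 85 pluripotency UMIs (median 35.5). These mixed barcodes had a median of 9651.5 UMIs, against 3635 in the members, and the doublet caller Scrublet marked 10 of the 14 (71.4%, exact binomial interval 41.9 to 91.6%). It marked 10 of the 75 members (13.3%, interval 6.58 to 23.2%) and 2847 of all filtered cells (16.6%). Mixed barcodes were not counted as members, and they stand among the other cells in every ratio below. They held 756 of the 922 Lyz2 UMIs found outside the members, and 790 of the 4372 UMIs of 16 other macrophage markers found there.

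In depth the members ranged from 1033 to 11246 UMIs and from 601 to 3707 genes (median 1587), 303444 UMIs in all, and the median mitochondrial share was 2.43%. The other 17122 filtered cells had a median of 6404 UMIs and 2667 genes. The groups set beside the members were defined by UMIs as well. Pluripotent cells are the 11485 filtered cells with at least 10 pluripotency UMIs and under 5 marker UMIs (median 7197 UMIs). Fibroblast-like cells are 243 filtered cells with at least 20 UMIs of Col1a1, Col1a2 and Col3a1 and under 10 pluripotency UMIs (median 7103 UMIs). Cell-free droplets are 72027 uncalled barcodes of 150 to 300 UMIs, which measure the free RNA of the suspension. A level in CPM is a gene's share of all UMIs summed over the cells of a group, on a scale where 10000 CPM is 1% of UMIs, and its 95% interval is an exact Poisson interval that covers counting error only. In the members a gene with no UMI could lie as high as 9.89 CPM, the level of 3 counts.

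Lyz2 (ENSMUSG00000069516) was the one gene of the rule found in every member. It had UMIs in 75 of 75 members, from 3 to 225 per cell with a median of 43, and its level was 12902 CPM (interval 12501 to 13312), against 1.28 CPM in pluripotent cells, 2.63 in fibroblast-like cells and 13 in cell-free droplets. Ccl6 ranged from 0 to 128 UMIs per member (median 6), with 54 members above 0. C1qa ranged from 0 to 43 (median 6, 68 members above 0), and C1qc from 0 to 27 (median 7, 65 members above 0). Ccl6 was thus the gene of the 4 that the most members lacked, with 0 UMIs in 21. These 4 genes chose the cells, and their levels support nothing. The fifth marker, Wfdc17, which the rule did not use, ranged from 0 to 81 UMIs (median 2), was seen in 52 of 75 members and had 1443 CPM against 0.0861 in pluripotent cells; 1 member held 18.5% of its UMIs.

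Of 20 macrophage markers, the 16 outside the rule were each at least 2-fold higher in the members than in the other cells, with a median log2 ratio of 7.55. A gene was called here when it differed at least 2-fold after adding 1 CPM to both sides, with at least 20 CPM on the higher side. By that rule 1344 of 7766 genes tested were higher (17.3%) and 2587 lower (33.3%), and the median log2 ratio over all tested genes was −0.54. Because the members were chosen by genes measured in the same cells, these counts describe the cells and test nothing. The shares of 17.3% higher and 33.3% lower are the background for every count of list genes given below. The 16 markers summed to 11435 CPM in the members, 32 in fibroblast-like cells, 31.7 in pluripotent cells and 48.8 in cell-free droplets. Per member they gave from 0 to 121 UMIs, with a median of 40, and 1 member had none.

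The leading genes outside the rule included receptors, adaptors, chemokines and a cathepsin. The 20 with the largest fold among genes of at least 100 CPM in members were Ccl4, Tyrobp, Fcer1g, Ccl3, Ms4a7, Bcl2a1b, Wfdc17, Pf4, Ctss, Ccl12, Ccl9, C1qb, Clec4n, Trem2, C3ar1, Msr1, Lilrb4a, Gpnmb, Cd36 and Ms4a6d. Their folds ran from 359 for Ms4a6d to 972 for Ccl4, after the added 1 CPM, which understates the fold of genes near 0 in the other cells. Over all tested genes, 429 were more than 10-fold and 72 more than 100-fold higher. Without the 2 members of 5 marker UMIs, which leaves 73, the counts were 1471 higher and 2791 lower, and without all 4 members of under 10 marker UMIs they were 1448 and 2820.

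**Figure D2:**
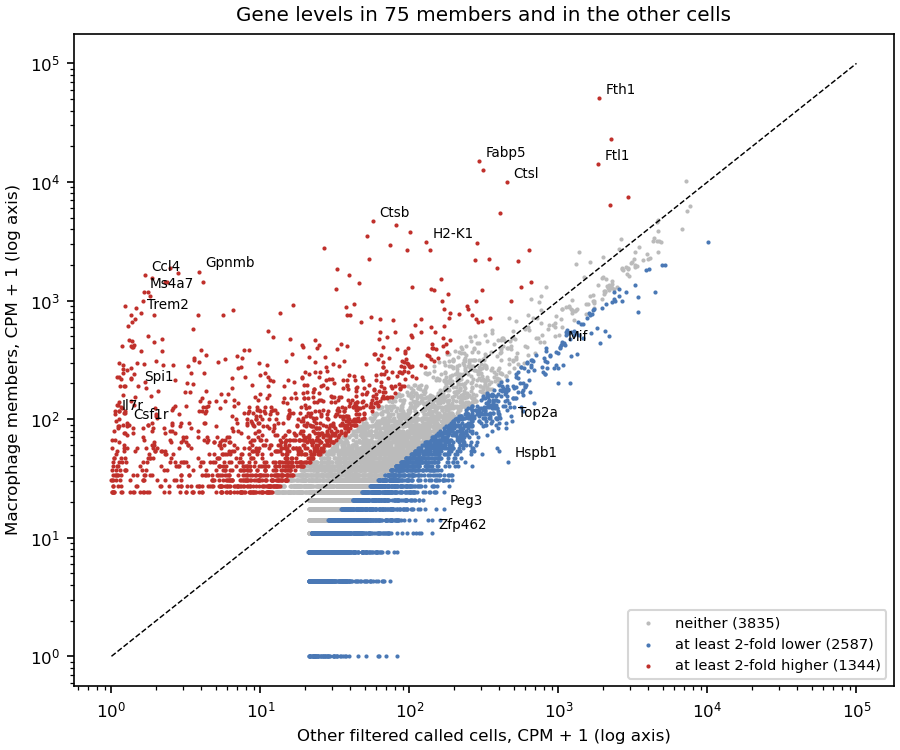
Level of each tested gene in the 75 members against the other filtered cells, in CPM plus 1 on log axes, with the line of equal level dashed. Red points are the 1344 genes at least 2-fold higher and blue points the 2587 at least 2-fold lower; Ccl4, Ms4a7 and Trem2 sit far to the upper left and Fth1 has the highest level in the members.

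The signalling adaptors and receptors that a phagocyte carries on its surface were high in most members. Tyrobp, the adaptor DAP12, ranged from 0 to 22 UMIs per member (median 5) and was seen in 70 of 75. Fcer1g, the common chain of Fc receptors, ranged from 0 to 22 (median 7) and was seen in 71. In cells thinned to 1000 UMIs, so that depth is equal, Fcer1g was detected in 80% of members, and in none of 243 fibroblast-like cells (a count of 0 allows up to 1.23%) or 2000 drawn pluripotent cells (up to 0.15%). In the same thinning no member was too shallow to be used. Of 21 Fc, scavenger and efferocytosis receptor genes, 18 were tested and all 18 were higher in the members, with a median log2 ratio of 7.59 against −0.54 over all genes. Trem2, a lipid receptor that signals through Tyrobp, had 784 CPM in the members and 0.578 in the other cells. Clec4n, which encodes the fungal lectin receptor Dectin-2, had 755 CPM against 0.347, and the scavenger receptor Msr1 had 656 against 0.38. Cd36, which takes up oxidised lipid, was uneven: 53 members had it, and 1 member held 17.6% of its 227 UMIs. The mannose receptor Mrc1 was seen in 45 members at 349 CPM. Lrp1, a large endocytic receptor that fibroblasts also use, had 211 CPM in the members but 426 in fibroblast-like cells. Cd163 and Timd4, receptors of many tissue-resident macrophages, had 0 UMIs in the members, which allows up to 9.89 CPM.

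Complement genes were high as far as the C1q complex and the receptors for complement fragments are concerned. C1qb, the third C1q chain, ranged from 0 to 17 UMIs per member (median 2, 57 of 75 above 0). The receptors for C3a and C5a, C3ar1 and C5ar1, had 692 and 297 CPM, against 0.446 and 0.124 in the other cells. Itgam and Itgb2, the chains of complement receptor 3, were seen in 30 and 33 members. Properdin, encoded by Cfp, had 313 CPM against 2.61. Among the 13 complement genes outside the rule, all 7 that were tested were higher (median log2 ratio 6.73). C3 itself had only 2 UMIs in the members, while C4b, Cfb and Vsig4 had 0.

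Every lysosomal gene on the list was higher in the members. All 28 were tested and all 28 were called, with a median log2 ratio of 4.09, and their summed level was 37219 CPM against 1871 in pluripotent cells. Unlike the macrophage markers, they were also high in fibroblast-like cells, at 11383 CPM. The protease cathepsin L (Ctsl) ranged from 1 to 196 UMIs per member (median 26) and had UMIs in all 75; its level was 10002 CPM in members, 3650.1 in fibroblast-like and 354 in pluripotent cells. Cathepsin B (Ctsb) ranged from 1 to 57 UMIs (median 17), also in all 75 members, and its ratio to the other cells was 81.8-fold. Cathepsin S (Ctss), the cathepsin of antigen-presenting cells, separated the members most: 1710.4 CPM against 0.377 in pluripotent and 0 in fibroblast-like cells. Cathepsin D (Ctsd) had 3773 CPM, prosaposin (Psap), the precursor of sphingolipid activators, 2913, and legumain (Lgmn) 1829. The membrane protein Lamp1, which every cell uses, had a smaller fold, 4-fold (1233 against 307 CPM).

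Genes of lipid-laden macrophages held a large share of the members' RNA. Fabp5 (ENSMUSG00000027533), a fatty acid binding protein, ranged from 0 to 244 UMIs per member (median 43), and its 15047 CPM was 51.4-fold above the other cells (interval of the ratio 50 to 53.2). It was at 325 CPM in fibroblast-like cells and 212 in pluripotent cells. Apoe, the lipid carrier apolipoprotein E, had 5494 CPM and was lower in fibroblast-like cells (39.9) than in pluripotent cells (462). Lgals3, encoding galectin-3, had 2765 CPM and was seen in 73 members. Gpnmb, a glycoprotein of late endosomes, was in 67 members at 1756 CPM, with 26.8 in fibroblast-like cells. Plin2, which coats lipid droplets, had 1654 CPM in 72 members. Fabp4 was more restricted: 27 members had it, and 1 of them held 27.8% of its 230 UMIs. Of 17 genes in this group 16 were higher. The summed level of the group was 43946 CPM against 1318 in the other cells, 7512 in fibroblast-like cells and 1173 in cell-free droplets. A single member held 9.27% of the members' UMIs of this group.

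Spp1 (ENSMUSG00000029304), encoding osteopontin, a secreted adhesion protein and cytokine, varied most. It ranged from 0 to 901 UMIs per member with a median of 19, and 69 members had it. A single member held 23.3% of the 3862 UMIs. Its level was 12727 CPM in the members and 5940.1 in fibroblast-like cells, so it was no mark of the members alone, while pluripotent cells had 166.

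Both ferritin messages were found in every member. Fth1 (ENSMUSG00000024661), the heavy chain of the iron store, ranged from 5 to 702 UMIs per member (median 181) and had 51212 CPM, against 5803 in fibroblast-like and 1866 in pluripotent cells. Ftl1, the light chain, ranged from 5 to 197 (median 50) and had 14246 CPM against 1854 in the other cells. Heme oxygenase 1 (Hmox1), which frees iron from heme, had 511 CPM, 5.01-fold above the other cells, and Slc11a1, the phagosomal metal transporter, had 72.5 against 0.272. The transferrin receptor Tfrc, by which dividing cells import iron, was at 98.9 CPM in the members and 93.8 in the other cells. Of 12 iron genes 10 were tested and 8 were higher; Tfrc and Ireb2 were called in neither direction. Ferritin genes have many near-identical copies, and reads of such copies may have been dropped or misplaced in the counting.

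Chemokines came from most members but in unequal amounts. Ccl2 ranged from 0 to 127 UMIs per member (median 9, 61 members above 0), and Ccl7 from 0 to 84 (median 9, 62 above 0). Both attract monocytes, and both were also high in fibroblast-like cells: Ccl2 had 4307 CPM in the members and 2949 in fibroblast-like cells, and Ccl7 3470.2 and 1876. Ccl8 had the opposite order, 188 CPM in members and 1148 in fibroblast-like cells. Ccl3, Ccl4, Ccl9 and Pf4 were nearly confined to the members: Ccl4 ranged from 0 to 49 UMIs per member (median 3, 52 above 0) and had 1628 CPM against 0.525 in fibroblast-like and 0.291 in pluripotent cells. Pf4, known from platelets and also made by macrophages, was in 59 members at 999 CPM, while the platelet genes Itga2b, Gp9 and Gp1bb had 0 UMIs. Ccl12 was in 48 members at 1430.2 CPM. Ccl5 was in only 5 members, 1 of which held 52.6% of its UMIs. All 13 chemokines tested outside the rule were higher, with a median log2 ratio of 5.74; Ccl22 had 0 UMIs. Ccl2, Ccl7, Ccl8 and Ccl12, Ccl3 and Ccl4, and Ccl6 and Ccl9 are related in sequence, so reads could have been shared or dropped between them.

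Among receptors for chemoattractants, Ccr1, which binds Ccl3 and Ccl9, had 132 CPM in the members and 0.0825 in the other cells and was seen in 28 members. Ccr2, the receptor for Ccl2 on monocytes, had 1 UMI. Cx3cr1, the fractalkine receptor, was in 6 members.

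Inflammatory genes ranged from no UMI to clear detection. Their list of 21 genes summed to 1169.9 CPM in the members, 201 in the other cells and 523 in fibroblast-like cells, and Hmox1, described above, gave 511 CPM of the first sum. Il6, Il10, Il12b, Nos2 and Cd40 had 0 UMIs in the members. Tnf had 14 UMIs in 10 members (46.1 CPM), and Il1b 11 UMIs in 2 members, 10 of them in 1 cell. Il1rn, the antagonist of interleukin 1, had 57 UMIs in 24 members and 188 CPM against 0.231 in the other cells. Tgfb1, a cytokine that also limits inflammation, had 105 CPM against 5.43. Of the 21 genes 8 were tested, and 7 of the 8 were higher. The NADPH oxidase, which makes superoxide in the phagosome, was higher in its genes Cyba, Cybb, Ncf1, Ncf4 and Rac2, with Cybb at 402 CPM in 48 members against 0.388 in the other cells. Pattern recognition receptors were higher in 9 of 10 tested genes. Cd14, the lipopolysaccharide co-receptor, had 221 CPM in 32 members, Tlr2 69.2, Tlr13 65.9, Tlr7 39.5 and Tlr4 39.5, and Tlr9 had 0 UMIs.

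The transcription factors that define the lineage were detected, each in part of the members. Spi1 (ENSMUSG00000002111), which encodes PU.1, had from 0 to 4 UMIs per member, was seen in 39 of 75 and had 191 CPM (interval 145 to 247) against 0.463 in pluripotent and 0 in fibroblast-like cells. Irf8, a partner of PU.1, had 171 CPM in 35 members. Maf, a large Maf factor of mature macrophages, had 379 CPM, and Cebpb, which drives myeloid genes, 537, with 456 in fibroblast-like cells. Mitf and Tfec, related factors that drive lysosomal and osteoclast genes, had 125 and 85.7 CPM, with 0.124 CPM of Tfec in the other cells. Of 20 factors 17 were tested and 15 were higher (median log2 ratio 3.69). Spic and Batf3, factors of red pulp macrophages and of a dendritic cell type, had 0 UMIs.

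Growth factor receptors were low in UMIs. Csf1r (ENSMUSG00000024621), the receptor that macrophages need to survive, had 28 UMIs in 22 members, no more than 2 in any, and 92.3 CPM (interval 61.3 to 133) against 0.264 in the other cells. Csf2rb, the common chain of the GM-CSF receptor, had 95.6 CPM against 0.066. Csf3r and Flt3, receptors of neutrophils and of early dendritic cells, had 0 UMIs, and Kit 1. The ligand side differed by cell group. Csf1 had 39.5 CPM in the members, 2.7 in pluripotent cells and 189 in fibroblast-like cells, and the other Csf1r ligand, Il34, had 0 UMIs in the members, 1.44 CPM in pluripotent cells and 15.2 in fibroblast-like cells. Csf2 had 0 UMIs in the members. Gas6, which bridges dying cells to phagocytes, had 241 CPM in members and 281 in fibroblast-like cells. Mif, a widely made cytokine, was the tested ligand called lower, at 419 CPM against 1041.

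Genes of signalling and the cytoskeleton that blood cells in general use were higher in the members. Of 21 listed genes 19 were tested, 18 were higher and 0 were lower, with a median log2 ratio of 4.89. Ptprc, which encodes the leukocyte antigen CD45, ranged from 0 to 3 UMIs per member, was seen in 25 members and had 115 CPM against 0.132 in the other cells. The tetraspanin Cd53 was seen in 54 members, at 448 CPM against 0.924, and the actin bundling protein Lcp1 in 45, at 287 against 1.21. CD45 RNA was thus detected in fewer members than Cd53. The Src family kinase Fgr had 0 UMIs in the members. Of 22 Hox genes, which pattern the body axis, 19 had 0 UMIs in the members, and of 8 endothelial markers 6 had 0 UMIs, with none tested in either list.

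Antigen presentation was split by class. H2-K1, the heavy chain of MHC class I, ranged from 0 to 41 UMIs per member (median 11) and was in 74 of 75; its level was 3114 CPM, against 1832 in fibroblast-like and 72.5 in pluripotent cells. B2m, the light chain, had 2649.6 CPM in the members and 46.4 in pluripotent cells. Of 11 class I genes 10 were tested and 9 were higher, and Psmb10 was called in neither direction. H2-K1 and H2-D1 are alike in sequence, and reads may be shared. Class II was near 0: the 8 genes summed to 26.4 CPM (interval 11.4 to 51.9) in the members and 13.2 in the other cells. H2-Aa, H2-Ab1, H2-DMb1, H2-Oa and Ciita, the class II activator, had 0 UMIs, and Cd74, the invariant chain, had 6 UMIs in 4 members. Class II transcripts were therefore not detectable above the other cells at this depth.

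Interferon-stimulated genes were higher in the members than in the other cells but not highest there. All 15 tested of 16 were higher, with a median log2 ratio of 2.32, and their summed level was 5843 CPM in the members, 1151 in pluripotent cells and 8215 in fibroblast-like cells. Ifitm3 had 2155 CPM in members and 3274 in fibroblast-like cells, and Isg15 491 and 1066. Rsad2, encoding viperin, had the reverse order, 329.6 CPM in members and 51.5 in fibroblast-like cells.

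**Figure D3:**
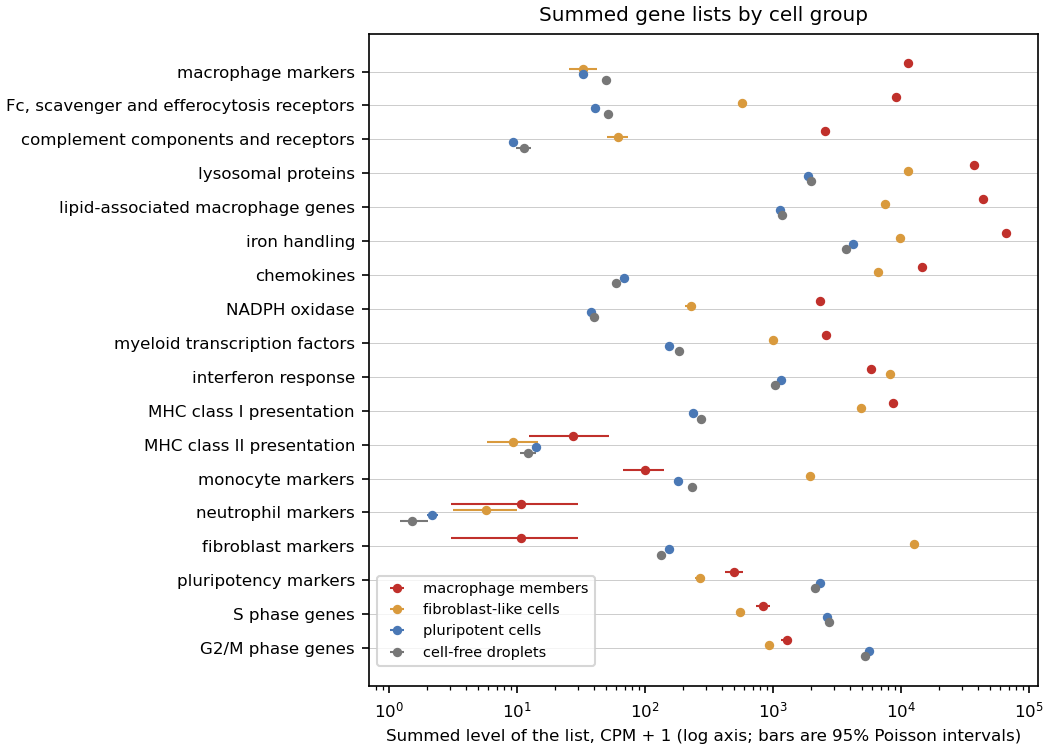
Summed level of 18 gene lists in members, fibroblast-like cells, pluripotent cells and cell-free droplets, in CPM plus 1 on a log axis with 95% Poisson intervals. Macrophage markers separate the members from every other group, and lysosomal, chemokine and interferon lists are shared in part with fibroblast-like cells. Fibroblast markers sit at 9.89 CPM in members against 12741 in fibroblast-like cells, which Col1a1, Col1a2 and Col3a1 of that list chose.

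Genes of tissue-resident macrophages were detected in part. Ms4a7, a marker of many mature macrophages, was in 72 of 75 members (range 0 to 16 UMIs, median 4), and after thinning in 74.7% of members and in none of the fibroblast-like or drawn pluripotent cells. Igf1, a growth factor, had 372 CPM against 1.2, Folr2, a folate receptor, 112 against 3.25, and Stab1, a scavenger receptor, 125 against 0.165. Lyve1, Cd163, F13a1, Retnla, Chil3 and Timd4 had 0 UMIs. All 10 tested of the 17 genes in this group were higher.

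Markers of neutrophils, dendritic cells, B cells, mast cells and erythroid cells were at or near 0, as were most monocyte markers, whereas some microglia and osteoclast genes were higher. Among monocyte markers, Ly6c2, Chil3, Cd177 and F13a1 had 0 UMIs, Ccr2 and Plac8 had 1 each, and Fn1, which other cells also express, was lower in members (92.3 CPM against 188). The 10 neutrophil markers gave 3 UMIs in all, the 8 dendritic cell markers 3, and the 5 B cell markers in the matrix 2; each of these sums is at or under the level of 3 counts. All 8 mast cell markers and all 8 erythroid markers, adult and embryonic globins included, had 0 UMIs. Among microglia markers, Tmem119, Gpr34 and Olfml3 had 0 UMIs, P2ry12 had 1, and Sall1 was lower than in the other cells, whereas Fcrls (65.9 CPM) and Cx3cr1 (49.4 CPM) were higher. Clec4f, Vsig4, Cd5l, Timd4 and Spic, Kupffer cell genes, had 0 UMIs. Of 8 osteoclast genes 3 were tested and all 3 were higher, with a sum over the list of 356 CPM against 17.4 in the other cells. Atp6v0d2, a subunit of the proton pump, had 260.3 CPM in 36 members, Acp5, a secreted acid phosphatase, 46.1 CPM in 13, and the transcription factor Nfatc1 23.1 in 7. Dcstamp and Ocstamp, needed for cell fusion, had 0.

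Il7r (ENSMUSG00000003882) stood apart from its list. This interleukin 7 receptor, known from lymphocytes, had 33 UMIs in 23 of 75 members, no more than 3 in any of them. Its level was 109 CPM (interval 74.9 to 153) against 0.0578 in the other cells and 0 UMIs in fibroblast-like cells. The other 7 T and NK cell genes (Cd3d, Cd3e, Cd3g, Trbc2, Nkg7, Gzma and Klrb1c) had 0 UMIs in the members.

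Markers of the other cells in the culture were low. The 13 fibroblast markers gave 3 UMIs in 75 members, 9.89 CPM, against 12741 CPM in fibroblast-like cells and 133 in cell-free droplets. Col1a1, Col1a2 and Col3a1 are among the 13 and chose the fibroblast-like cells, which sets the level there in part. Of the 13, 10 had 0 UMIs in the members, Col1a1 and Mmp3 among them. For Col1a1 the level in members was at least 6.11-fold lower than in the other cells, with 0 UMIs taken as 3 counts over all members. The 9 pluripotency markers outside the rule were all lower, by a median log2 ratio of -2.18, and summed to 498 CPM in members, 269 in fibroblast-like cells, 2355 in pluripotent cells and 2129 in cell-free droplets. Per cell that was a mean of 2.01 UMIs in a member, 0.462 in a cell-free droplet and 19.0 in a pluripotent cell. The median was 1 in members, of which 23 had 0, and 17 in pluripotent cells. Sox2 had 9 UMIs in all members and Nanog 4. The limit of the rule on pluripotency UMIs lowers this list, and free RNA in the droplets adds to it; the part of each was not tested. Epithelial markers such as Epcam and Cdh1 were lower too, 7 of 7 tested, where 33.3% of all tested genes were.

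The 10 genes with the largest fold the other way, among genes of at least 100 CPM in the other cells, were Zfp462, Gpc6, Platr10, Sparc, Hspb1, Enox1, Ooep, Peg3, Txlng and Rhox5. Most rest on few UMIs in the members. Zfp462, a chromatin-bound zinc finger protein, had 3 UMIs in the members (9.89 CPM) against 140.1 CPM in the other cells, a ratio between 0.0146 and 0.206 by counting. Hspb1, a small heat shock protein, had the most UMIs of the 10, 13 in 10 members, and 42.8 CPM against 458 (ratio interval 0.0498 to 0.16). Rhox5, an X-linked homeobox gene of early embryos, had 4 UMIs and 13.2 CPM against 132. Sparc, a matrix protein of stromal cells, had 9.89 CPM in the members and 2101 in fibroblast-like cells. When a gene was counted as lower only if the whole counting interval of its ratio lay past 2-fold, 486 genes were lower in place of 2587, and 919 higher in place of 1344. With no limit on pluripotency UMIs, which adds the mixed barcodes to the members, 1501 genes were lower.

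Cell cycle genes were lower in the members than in the other filtered cells. Of 20 G2/M genes all 20 were lower (median log2 ratio -2.03), and of 20 S phase genes 18 were lower (-1.57). Over all tested genes 33.3% were lower. Top2a, which untangles chromosomes, had 95.6 CPM against 486, and Mki67, the gene of the Ki-67 antigen, 8 UMIs. The median member had 2 G2/M UMIs, against 40 in pluripotent cells and 2 in the deeper fibroblast-like cells. In level, G2/M genes summed to 1279 CPM in members, 939 in fibroblast-like cells and 5647 in pluripotent cells. S phase genes summed to 840, 558 and 2667 CPM in the same order. Of the members' 388 G2/M UMIs, the 2 cells with 5 marker UMIs held 61 and 33, and 3 Scrublet doublets held 35, 25 and 20. The sums were not recomputed without these barcodes, so no order of members and fibroblast-like cells is read from them. Cell-free droplets held the same genes, so their ratio to pluripotency RNA, which the rule itself limits in the members, is given beside the level. Pluripotency UMIs also define the fibroblast-like cells (under 10) and the pluripotent cells (at least 10), so these ratios are a description only. Per UMI of the 9 pluripotency markers outside the rule, the members had 2.57 G2/M UMIs, cell-free droplets 2.47, pluripotent cells 2.40 and fibroblast-like cells 3.49. Without the member of most G2/M UMIs, 1 of the 2 cells with 5 marker UMIs, the members had 2.37. For S phase genes the same ratio was 1.69 in members and 1.67 without that member. It was 1.29 in cell-free droplets, 1.13 in pluripotent cells and 2.07 in fibroblast-like cells. Among the members with the most G2/M UMIs (61, 35, 33, 25, 22 and 20), Scrublet marked the ones with 35, 25 and 20 as doublets. Division of the macrophages was not read from these counts.

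Among immediate early genes, which dissociation can induce, 7 of 12 tested were higher, where 17.3% of all tested genes were, and 2 were lower, which is below the 33.3% over all tested genes. Fos had 234 CPM in 40 members against 8.96 in the other cells and 44.7 in fibroblast-like cells, whereas Ier2 had 75.8 against 165. The part of trypsin treatment in these levels was not tested.

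Genes of the sex chromosomes were mixed among the members. Xist, the RNA of the inactive X chromosome, was found in 24 of 75 members, from 1 to 8 UMIs, and at least 1 of the Y-linked genes Ddx3y, Eif2s3y, Uty and Kdm5d in 13. Both were seen in 2 members and neither in 40. The 4 Y-linked genes summed to 56.0 CPM in the members, 140.3 in fibroblast-like cells, 4.64 in pluripotent cells and 5.32 in cell-free droplets. Y-linked UMIs were in 17.3% of members, 44.4% of fibroblast-like cells and 3.20% of pluripotent cells, at median depths of 3635, 7103 and 7197 UMIs. Xist was at 241 CPM in members, 299.97 in fibroblast-like cells, 159 in pluripotent cells and 61.4 in cell-free droplets. Of the 243 fibroblast-like cells, 90 had Xist, 108 a Y-linked gene and 7 both, and of the 11485 pluripotent cells 3246, 368 and 111. At these depths the absence of either RNA from a member says nothing about its sex chromosomes.

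The members differed among themselves beyond counting error. After thinning each to 1000 UMIs, the largest ratios of variance to mean across the 75 were those of Spp1 (18.5), Fth1 (16.5), Tmsb4x (16.2), Malat1 (15.3), Fabp5 (12.98), S100a6 (12.9), Wfdc17 (8.18), Ccl6 (7.73), Ctsl (7.53) and Ccl12 (7.18). A ratio of 1 is what counting alone would give, and Ccl6 helped to choose the cells. Without the member highest in the gene, the ratio of S100a6 fell to 2.65 and that of Wfdc17 to 2.03, still above 1. The high ratios of these genes thus rest mostly on 1 cell each. Those of the other 8 genes lay between 5.54 and 14.8 without their highest member, with Fth1 (14.8) then above Spp1 (13.8). Tmsb4x, which binds actin monomers, ranged from 0 to 358 UMIs, and Malat1, a nuclear RNA whose share rises when cytoplasm is lost, from 0 to 200. S100a6 had a median of 6 UMIs and a single member with 161, and its level in fibroblast-like cells was 17899.6 CPM against 2679 in members.

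**Figure D4:**
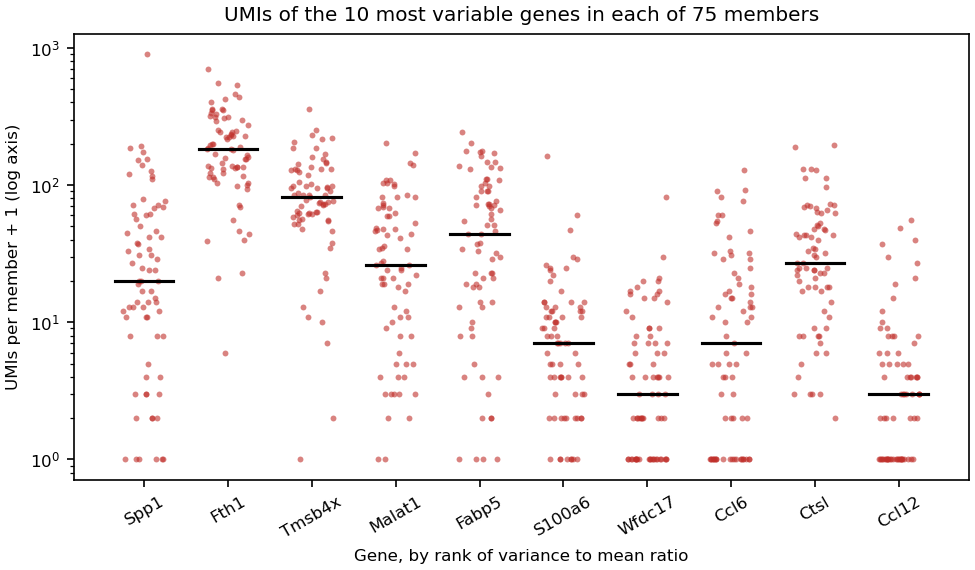
UMIs of the 10 genes with the largest variance to mean ratio in each of the 75 members, plus 1 on a log axis; bars mark the medians. Spp1 spreads from 0 to 901 UMIs, Fth1 is present in every member, and Wfdc17, Ccl6 and Ccl12 have many members at 0.

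Some of these genes varied together. Over 75 thinned members and 378 pairs of 28 genes, Spearman's rho was 0.72 for Ctsl and Fabp5, 0.61 for Ctsl and Fth1, 0.59 for Ccl6, a gene of the rule, and Fabp5, and 0.55 for Fabp5 and Fth1. The lowest was −0.34, for Ms4a6d and C1qb, followed by −0.31 for Malat1 and Trem2. Members high in cathepsin L thus tended to be high in Fabp5 and ferritin. All cells come from 1 pooled library and share its free RNA, a fixed total of UMIs ties genes together, and the values are given as a description.

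The members held less of 1 cell tag than pluripotent cells. Only the oligos CMO311 and CMO312 had calls in the tag table. Members had a median of 1121 UMIs of CMO311 (108 to 7972), against 830 in cell-free droplets and 1014 in pluripotent cells, and a median of 21 UMIs of CMO312 (1 to 792), against 340 in cell-free droplets and 404 in pluripotent cells. In 71 of 75 members (94.7%, exact binomial interval 86.9 to 98.5%) CMO312 was below 219 UMIs, the level under which 9.94% of cell-free droplets lay. The same held for 89.7% of fibroblast-like cells, whose medians were 1581 and 33, and for 12.02% of pluripotent cells. CMO311 exceeded CMO312 in all 75 members, and also in 97.6% of cell-free droplets, 98.4% of fibroblast-like cells and 78.05% of pluripotent cells. The mixed barcodes, most of them Scrublet doublets, had medians of 1089.5 and 27.5. In the deposited tag calls, 21465 of all 21593 cells were unassigned, among them 74 of the members, and 1 member was called CMO311. The members' probabilities of assignment, given there as a fraction between 0 and 1, ran from 0.465 to 0.922 (median 0.770). A called barcode with less of a tag than empty droplets hold was thus common among macrophages and fibroblast-like cells and less common among pluripotent cells. Its cause was not tested, and since no tag name matches a sample label, no member was given to a sample.

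**Figure D5:**
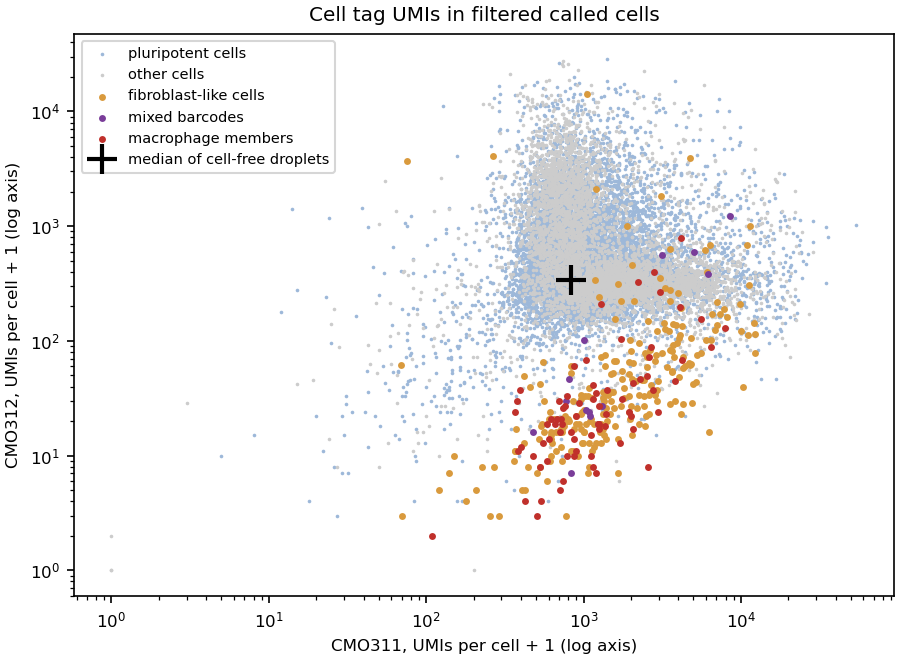
UMIs of the tag CMO312 against those of CMO311 in each of 17197 filtered cells, plus 1 on log axes, with a cross at the medians of cell-free droplets (830 and 340 UMIs). Members and fibroblast-like cells lie mostly below the cross on the CMO312 axis, and pluripotent cells around and above it.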

How the data were processed

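Per the file headers, Cell Ranger 8.0.1 wrote the deposited matrix of UMI counts, which pools all cells. Beside it stands a deposited table with a fraction (a probability between 0 and 1) for each tag assignment. The submitters' processing notes also name Seurat. For the genome build and the annotation, nothing is given in the sources used here. The matrix has 33696 genes, 12 tag oligos and 2578653 barcodes, with 147244661 UMIs, and its barcodes are not divided by sample.

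Counts were summed per group and scaled to CPM. Ratios used a pseudocount of 1 CPM and a call needed a 2-fold difference and 20 CPM on the higher side; the 7 genes of the rule were left out. Intervals are exact Poisson, exact binomial or conditional binomial at 95% and cover counting error only. With 1 pooled sample no test between groups was possible, and the calculations were tested on simulated data. Doublets were called with Scrublet in scanpy 1.11.5 (expected rate 0.1) and were left in, their removal being an alternative. Thinning used 1000 UMIs per cell. Python 3.11.15, numpy 2.4.6 and scipy 1.17.1 were used.

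The members, gene lists and settings were chosen with earlier results of these data known. Genes named are the markers of the rule, the 20 of largest fold in members (at least 100 CPM, a UMI in 10 members), the 10 of largest fold the other way, the 10 most variable, and genes of the lists by level, fold or a count of 0; other list genes were named after their values were seen. Vpreb1 and Fyb1, on 2 of the lists, matched no gene of the matrix by symbol. Alternatives covered the limits of the rule, the filters, doublets, pseudocount, scaling, weight of cells, free RNA, reference cells and low levels; raising counts to 3, the interval rule and a limit of 6 marker UMIs were chosen after seeing the data. Promoters are from the RefSeq table for GRCm38.p6, matched by symbol, and none of the files' own coordinates were used. A few genes of the lists are not reported here by name.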

Additional observations from a re-analysis of the deposited data

Results flagged for a closer look

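Outside the filtered cells, 5 of the 4396 called cells that failed the limits on genes or mitochondrial UMIs also met the marker conditions (0.114%, exact binomial interval 0.0369 to 0.265%). They were singled out because macrophage RNA appeared in barcodes that no comparison uses. Among uncalled barcodes 1 had at least 5 marker UMIs, with 304 UMIs in all, and none of the cell-free droplets did.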

How the results depend on the processing

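With 1 pooled library there is no replicate spread, every interval covers counting error only, and 303444 UMIs in 75 cells limit what can be seen of genes under 9.89 CPM. The share of members ran from 0.366 to 0.518% over 8 alternatives, and the median CMO312 count from 20 to 23. The count of higher genes moved to 2591 with no minimum CPM. The count of lower genes moved to 1501 with no limit of pluripotency UMIs, 6634 with no minimum CPM and 486 when the counting interval had to lie wholly past 2-fold. Scaling without mitochondrial and ribosomal protein genes shifted the median log2 ratio by −0.17, and raising counts under 3 to 3 gave 1344 higher and 2544 lower genes. In the 17 alternatives run for each, the log2 ratio of Fth1 stayed between 4.42 and 4.97, that of Spi1 between 5.16 and 7.58 and that of Hspb1 between −4.52 and −1.78. Among the named genes and list medians that were recomputed, none past 2-fold changed direction. However, 649 of the recomputed values left the counting interval of the reported ratio and 558 stayed within it. For a list, the interval was the median of the bounds of its genes. Processing choices thus often moved a ratio by more than its printed counting error. The other calls were not followed gene by gene. The log2 ratio of Xist, which was not called, ran from −0.17 to 0.59. No paired analysis was possible because the files hold 1 pooled matrix whose cells carry no replicate number.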
